A study of Mus musculus with 40 samples.

Results

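The larynx of the mouse embryo was compared with the trachea and esophagus beside it at E13.5, an age in embryonic days. The comparison was chosen by tissue and age from the sample labels, with earlier results of these data known. It covers 6 of the 40 libraries in the series, which are 2 of larynx, 2 of trachea and 2 of esophagus. All 6 came from untreated wild type FVB/N embryos, and for each library tissue from 10 animals was pooled. Small pieces were cut at the level of the vocal folds for the larynx, and just posterior of it along the body axis for the trachea and the esophagus. RNA was read by poly-A bulk sequencing, so that each value sums over all cells of a piece, and fewer cells of a type and less RNA per cell cannot be told apart. Each tissue has 2 replicate libraries. A p-value here speaks only of how such pools vary and, where trachea and esophagus share a group, of how those tissues differ.

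At this age the laryngeal lumen is still closed off by epithelium, the laryngeal cartilages and muscles are condensing, and the trachea and esophagus have already separated. The neck is so short in the embryo that the thyroid, thymus, parathyroids, great vessels and the heart with its atria and sinus venosus lie close to these organs, and the liver lies below the diaphragm. Heart muscle and liver transcribe a few genes at very high levels, and a small piece of either is visible in bulk RNA of a neighbouring organ. The genes of both organs, and of blood, were therefore read next to those of the larynx, trachea and esophagus.

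The total of expected counts was 24163158 and 21393700 in the larynx, 23210925 and 12883607 in the trachea and 19482491 and 19171531 in the esophagus. Mitochondrial ribosomal RNA took 22.82% and 25.19% of the counts in larynx libraries, and 12.3% to 22.78% in the others, and its part in the results was not tested. Across the 23728 genes kept for testing, which reached 1 normalized count in 2 or more libraries, log2 values of replicates correlated at 0.969 in the larynx and at 0.952 in each of the other tissues. Libraries of different tissues correlated at 0.937 to 0.974, so that replicates were not always the closest pair. Larynx replicate 1 was closest to trachea replicate 1, at 0.974. These correlations are a description across genes, which are not independent. Values below are normalized counts, which are expected counts divided by a size factor for depth, and differences are log2 differences, larynx minus the average of the trachea and esophagus libraries, from edgeR's quasi-likelihood fit unless another fit is named.

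With trachea and esophagus in the same group, 0 genes passed an adjusted p of 0.05 in edgeR in either direction (0.00% of the genes tested), and the lowest adjusted p was 0.415. At an unadjusted p under 0.05 the same fit held 2242 genes (9.45%), of which 1417 were higher (5.97%) and 825 lower (3.48%), and DESeq2 called 186 higher (0.784%) and 37 lower (0.156%). In 2658 genes (11.2%) both larynx libraries lay above all 4 other libraries, and in 1917 genes (8.08%) both lay below. These genes are said to stand apart in what follows, and counts of list members are to be read against these shares. The median difference over all tested genes was -0.02. The spread of this fit includes differences between trachea and esophagus. With a mean for each tissue instead, 4 genes passed in edgeR, and the lowest adjusted p was 0.00255.

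Most heart muscle genes had their highest counts in the larynx libraries. The cardiomyocyte list, 20 genes of heart muscle such as Myh6 and Myl7, summed to 147311 and 280657 counts in the larynx, against 57933 and 94197 in the trachea and 9439 and 88444 in the esophagus. Both larynx libraries lay above every other library, and esophagus replicate 1 lay far below the rest. Of the 20 members 14 stood apart as higher in the larynx and 0 as lower, and the median difference was 1.71. None of the 20 passed the edgeR test against trachea and esophagus together, 14 were higher at an unadjusted p under 0.05, and DESeq2 called Corin and Myl2. On the same list the median was 1.33 against the trachea alone and 2.00 against the esophagus alone, comparisons that share the larynx libraries, and 1 member, Hcn4, passed in edgeR against the esophagus.

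Within that list, Myh6, the main myosin heavy chain of the atria and of the embryonic heart, had 72043 and 126721 counts in the larynx, against 27742 and 41244 in the trachea and 3998 and 45817 in the esophagus. Its difference was 1.74 ± 0.69 (SE), with an adjusted p of 0.498 in edgeR. Myl7, the atrial regulatory light chain, had 34710 and 77828 counts in the larynx, against 13747 and 24451 in the trachea and 2253 and 17210 in the esophagus. Both genes stood apart, and in both larynx replicate 2 was well above replicate 1. Myl2, the ventricular light chain, had 278 and 930 counts in the larynx, against 264 and 244 in the trachea and 91.7 and 152 in the esophagus. Larynx replicate 1 was close to the trachea for this gene. Nppa, the atrial natriuretic peptide, did not stand apart, with 6420 and 16611 counts in the larynx, against 2872 and 6405 in the trachea and 200 and 7308 in the esophagus. Irx4, a transcription factor of the ventricle, overlapped, with 14.9 and 21.8 counts in the larynx, against 21.8 and 0 in the trachea and 36 and 136 in the esophagus. Its difference of -1.42 was -0.12 without esophagus replicate 2, and against the trachea alone it was 0.61.

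Transcription factors of the heart followed. Of 10 on the list, 6 stood apart as higher and 0 as lower, with a median difference of 0.95, and DESeq2 called Gata4, Hand2 and Tbx5. Gata4, which directs heart and foregut mesoderm, had 1123 and 2078 counts in the larynx, against 601 and 856 in the trachea and 425 and 595 in the esophagus. Hand2, a factor of the outflow tract and branchial arches, had 439 and 703 counts in the larynx, against 260 and 337 in the trachea and 233 and 210 in the esophagus. Tbx5, needed for the atria, the sinus venosus and the lung buds, had 1539 and 1849 counts in the larynx, against 819 and 1074 in the trachea and 478 and 679 in the esophagus. The groups did not overlap for these 3 genes, and both trachea libraries lay between larynx and esophagus. Nkx2-5, the cardiac homeobox gene, had 236 and 601 counts in the larynx, against 79.8 and 143 in the trachea and 8.09 and 125 in the esophagus. Sarcomere genes shared by heart and skeletal muscle gave 13 of 19 standing apart as higher and 0 as lower, with a median of 1.51. Actc1, cardiac actin, had 53650 and 91538 counts in the larynx, against 21732 and 37065 in the trachea and 8422 and 34214 in the esophagus.

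**Figure D1:**
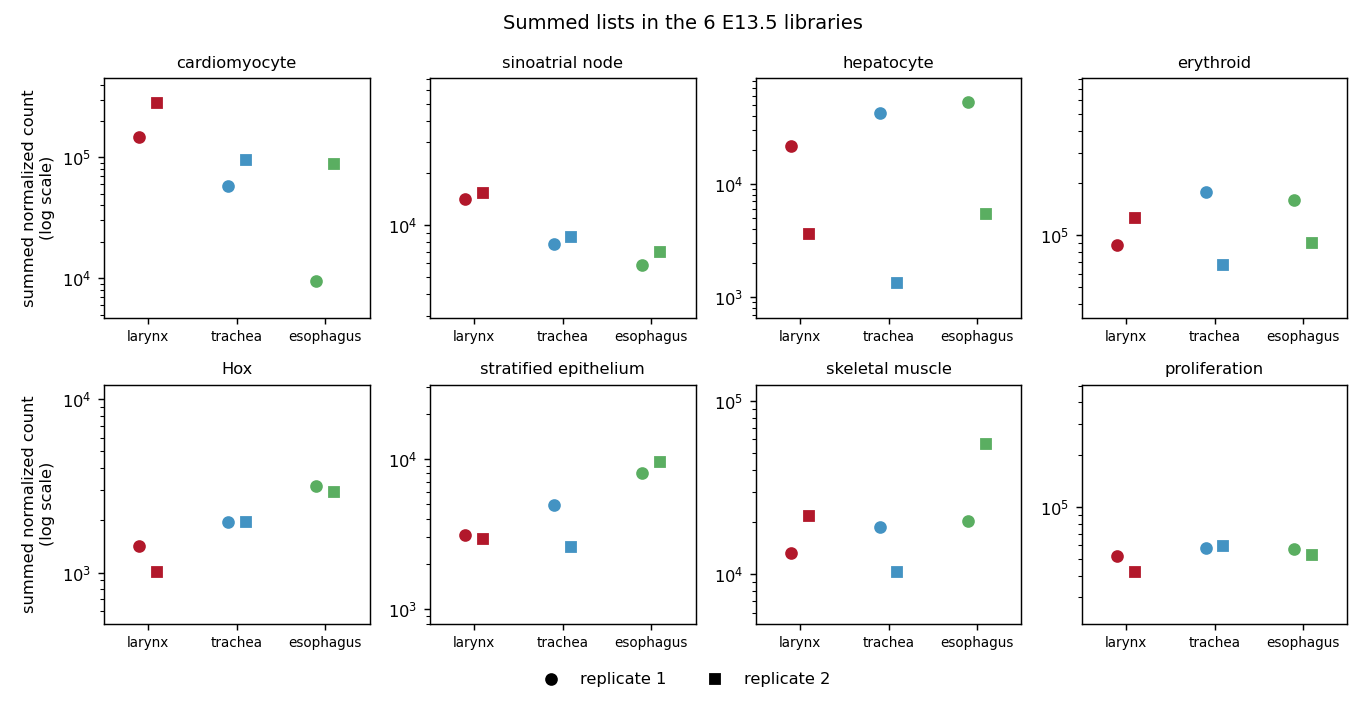
Summed normalized counts (log scale) of 8 gene lists in each E13.5 library, larynx at the left, with circles for replicate 1 and squares for replicate 2. The cardiomyocyte sum is 147311 and 280657 in the larynx libraries and at most 94197 in the other 4, whereas the hepatocyte sum separates replicate 1 from replicate 2 in each of the 3 tissues.

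Each organ alone was set against the larynx in a fit with a mean per tissue. Hcn4, Shox2, Vsnl1, Thbd and Eef1a2 were called higher in the larynx than in the esophagus, 5 of 23728 genes (0.0211%), and 0 as lower. The same fit, with the larynx against the average of the trachea and esophagus means, called 4 of them, Hcn4, Shox2, Vsnl1 and Eef1a2, at adjusted p of 0.00255 to 0.0453 in edgeR. Larynx against esophagus alone held 1291 genes higher (5.44%) and 980 lower (4.13%) at an unadjusted p under 0.05 in edgeR. For that pair DESeq2 called 302 higher (1.27%) and 220 lower (0.927%). Against the trachea alone 0 genes passed in edgeR, and 726 were higher (3.06%) and 388 lower (1.64%) at an unadjusted p under 0.05. DESeq2 called 9 higher (0.0379%) and 1 lower (0.00421%). These counts depend on the fit. With a block for the replicate number, edgeR called 244 of the 23728 genes against the trachea, 1228 against the esophagus and 2 against both together. Of the 5 genes, Hcn4, Shox2 and Vsnl1 are known from the sinoatrial node, the pacemaker at the entry of the right atrium. Hcn4 codes for the channel of the pacemaker current, Shox2 for a homeobox factor that keeps the node from turning atrial, and Vsnl1 for a calcium sensor of the visinin family. Shox2 is known from the palate and limbs as well. Eef1a2 codes for a translation elongation factor of muscle and neurons, and Thbd for thrombomodulin, the thrombin receptor of endothelium.

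The start regions of Hcn4 and Shox2, which passed the test together, and of Myh6, the most abundant gene of the cardiomyocyte list, are shown from 250 bases before to 50 bases after the annotated start. They are RefSeq sequences of GRCm38.p6, 5′ to 3′ on the gene's strand, and capitals mark the motif TATAAA or its reverse complement TTTATA.
Hcn4, chr9:58822699-58822998, plus strand: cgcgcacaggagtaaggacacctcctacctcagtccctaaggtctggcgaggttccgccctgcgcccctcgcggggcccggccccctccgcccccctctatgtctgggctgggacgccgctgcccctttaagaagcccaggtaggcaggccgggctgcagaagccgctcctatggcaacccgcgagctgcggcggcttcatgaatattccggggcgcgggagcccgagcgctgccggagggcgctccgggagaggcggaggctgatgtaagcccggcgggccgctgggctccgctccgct
Shox2, chr3:66981722-66982021, minus strand: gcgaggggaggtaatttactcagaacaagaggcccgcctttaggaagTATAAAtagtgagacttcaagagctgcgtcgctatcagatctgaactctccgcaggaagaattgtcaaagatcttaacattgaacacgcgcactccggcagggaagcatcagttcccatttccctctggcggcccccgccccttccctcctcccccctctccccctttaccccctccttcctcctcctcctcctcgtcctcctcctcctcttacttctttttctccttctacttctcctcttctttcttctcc
Myh6, chr14:54966558-54966857, minus strand: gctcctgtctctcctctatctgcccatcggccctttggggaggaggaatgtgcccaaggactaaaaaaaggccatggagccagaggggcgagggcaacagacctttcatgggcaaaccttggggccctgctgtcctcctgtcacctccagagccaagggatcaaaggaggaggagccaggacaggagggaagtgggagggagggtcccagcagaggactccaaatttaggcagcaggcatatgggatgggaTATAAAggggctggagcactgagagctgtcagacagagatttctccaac
Shox2 and Myh6 each held 1 match, at positions 48 and 252 counted from the left end, and Hcn4 held 0, while 13.6% of the 32851 RefSeq start regions of this length hold the motif. The share of G and C was 71.7% for Hcn4, 53.3% for Shox2 and 57.3% for Myh6, with a median of 52.7% over all start regions. A match describes letters and is not a measured site.

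Hcn4 (chromosome 9, 58730132 to 58770458, GRCm39) had 1867 and 1552 counts in the larynx, against 618 and 515 in the trachea and 204 and 151 in the esophagus. The difference from the esophagus was 3.27 ± 0.21 (SE), with an adjusted p of 0.00208 in edgeR, and that from the trachea was 1.59 ± 0.20, with an adjusted p of 0.371. Shox2 (chromosome 3, 66879058 to 66889284) had 1220 and 1545 counts in the larynx, against 468 and 554 in the trachea and 152 and 156 in the esophagus. It differed from the esophagus by 3.17 ± 0.19, adjusted p = 0.00208 in edgeR, and from the trachea by 1.44 ± 0.18, adjusted p = 0.371. Both genes fell into 3 separate levels by tissue, with the larynx at the top and the esophagus at the bottom.

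Vsnl1 (chromosome 12, 11375161 to 11488178) had 1111 and 1384 counts in the larynx, against 391 and 554 in the trachea and 147 and 196 in the esophagus, a difference from the esophagus of 2.86 ± 0.24, adjusted p = 0.0132 in edgeR. Eef1a2 (chromosome 2, 180778581 to 180799838) had 642 and 1164 counts in the larynx, against 293 and 270 in the trachea and 125 and 144 in the esophagus, a difference from the esophagus of 2.75 ± 0.29, adjusted p = 0.0465 in edgeR. Thbd (chromosome 2, 148216045 to 148250201) had a different shape, with 2437 and 2178 counts in the larynx and 1957 and 2107 in the trachea, against 797 and 710 in the esophagus. Larynx and trachea were close for Thbd, differing by 0.18 ± 0.15, whereas the esophagus lay 1.61 ± 0.15 lower, adjusted p = 0.0214 in edgeR. Hcn4 and Shox2 passed with every single library left out, at adjusted p of 0.00132 to 0.0397 in edgeR. Vsnl1 missed the threshold without larynx replicate 1 (0.0579), larynx replicate 2 (0.253) or trachea replicate 1 (0.0558), and Eef1a2 without larynx replicate 2 (0.285), trachea replicate 1 (0.147) or trachea replicate 2 (0.11). Thbd missed it without larynx replicate 1 (0.114), larynx replicate 2 (0.217), trachea replicate 1 (0.101) or trachea replicate 2 (0.0741). The count of genes called against the esophagus was 101 without esophagus replicate 1, 431 without esophagus replicate 2, and 2 without larynx replicate 2 or trachea replicate 1.

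A list of 15 sinoatrial node genes, drawn up after these values were seen, held 11 that stood apart as higher, 0 as lower and a median of 1.26. Besides the genes above, Cacna1d, the calcium channel that opens at low voltage in pacemaker cells, had 759 and 728 counts in the larynx, against 430 and 332 in the trachea and 237 and 244 in the esophagus. Cacna2d2, an auxiliary calcium channel subunit, had 1268 and 1782 counts in the larynx, against 412 and 464 in the trachea and 93.5 and 244 in the esophagus. Both were higher in each larynx library than anywhere else. Rgs6, which limits signalling of the vagus in the heart, had 485 and 688 counts in the larynx, against 222 and 237 in the trachea and 64.7 and 149 in the esophagus. Tbx18, a factor of the sinus horns, had 1141 and 1761 counts in the larynx, against 701 and 1011 in the trachea and 441 and 737 in the esophagus. Tbx3 and Isl1, transcription factors of the node that other foregut tissues also express, overlapped between the groups, and Tbx3 had 399 and 293 counts in the larynx, against 322 and 492 in the trachea and 457 and 317 in the esophagus. Lists of 12 atrial and 8 ventricular genes, drawn up at the same time, had medians of 1.63 and 0.82, with 8 of 12 and 2 of 8 standing apart as higher. Of these lists only the ventricular one had a member standing apart as lower, Mpped2.

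Counts per 1000 Myh6 counts of the same library set these genes against heart muscle. For Hcn4 the ratio was 25.9 and 12.2 in the larynx, against 22.3 and 12.5 in the trachea and 51 and 3.3 in the esophagus. Shox2 gave 16.9 and 12.2 in the larynx, against 16.9 and 13.4 in the trachea and 38 and 3.4 in the esophagus. Larynx and trachea ratios covered nearly the same range, and the esophagus libraries lay on either side of it. For Myl7 the ratio ran from 376 to 614 over the 6 libraries, and for Tnni3, cardiac troponin I, from 55.7 to 92.1. Other heart muscle genes varied more, with ratios of 49.9 to 160 for Nppa and of 3.32 to 22.9 for Myl2.

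**Figure D2:**
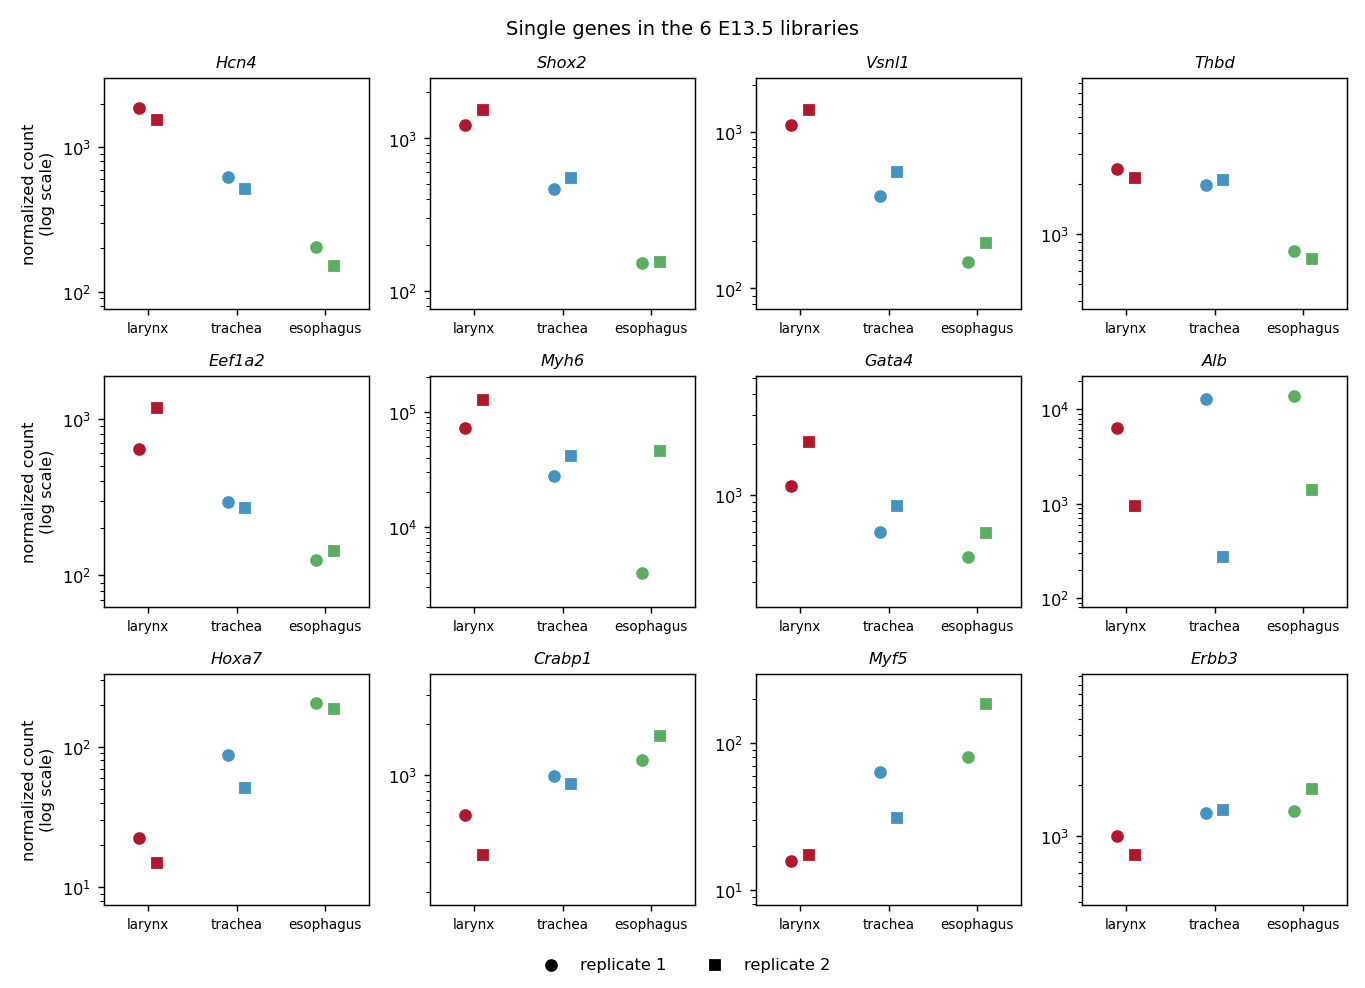
Normalized counts (log scale) of 12 genes in each library, larynx at the left, with circles for replicate 1 and squares for replicate 2. Hcn4, Shox2 and Vsnl1 form 3 steps from larynx to esophagus, Myh6 is 3998 in esophagus replicate 1, and Alb is higher in replicate 1 of every tissue.

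Liver genes did not follow the tissue. The hepatocyte list, 27 genes of secreted plasma proteins and liver enzymes of which 26 were tested, summed to 21623 and 3605 counts in the larynx, against 42205 and 1322 in the trachea and 53117 and 5390 in the esophagus. Replicate 1 of each tissue lay above replicate 2 of all tissues. No member stood apart in either direction, 0 passed in edgeR or DESeq2, 0 had an unadjusted p under 0.05, and the median difference was -1.05. Alb, serum albumin, had 6337 and 939 counts in the larynx, against 12758 and 271 in the trachea and 13993 and 1389 in the esophagus. Afp, the fetal counterpart of albumin, had 8316 and 1253 counts in the larynx, against 15818 and 492 in the trachea and 21587 and 2036 in the esophagus. Within replicate 1 the larynx was lowest for both genes, and within replicate 2 the trachea was lowest. Apoa1, the main apolipoprotein of high density particles, had 463 and 102 counts in the larynx, against 931 and 46.5 in the trachea and 1208 and 101 in the esophagus.

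Red cell genes overlapped between the groups, and replicate 1 was the higher library in the trachea and esophagus but not in the larynx. The erythroid list of 20 genes summed to 87393 and 125560 counts in the larynx, against 178774 and 66973 in the trachea and 159563 and 90370 in the esophagus, with a median of -0.68. A single member, Sptb, stood apart as higher, and 0 as lower. Hba-a1, an adult alpha globin, had 29197 and 41499 counts in the larynx, against 57799 and 16224 in the trachea and 49616 and 28081 in the esophagus. Hbb-y, the embryonic beta globin, had 15340 and 35252 counts in the larynx, against 31206 and 25028 in the trachea and 29991 and 23139 in the esophagus. Globin copies share reads, and their division by RSEM is uncertain. Alas2, which starts heme synthesis in red cells, had 827 counts in each larynx library, against 1488 and 686 in the trachea and 1526 and 768 in the esophagus.

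The thymus and parathyroid list also went with the replicate number. It summed to 1932 and 847 counts in the larynx, against 4214 and 1530 in the trachea and 3403 and 901 in the esophagus. Pth, parathyroid hormone, had 16.5 and 0 counts in the larynx, against 476 and 0 in the trachea and 578 and 0.939 in the esophagus. Pax9, a factor of the pharyngeal pouches and of esophageal epithelium, had 79.4 and 9.16 counts in the larynx, against 317 and 37.2 in the trachea and 393 and 196 in the esophagus. In both genes replicate 1 was the higher library of each tissue. Pax9 is not on the thymus and parathyroid list, and for it esophagus replicate 2 exceeded larynx replicate 1. Over the 13 genes of that list 0 stood apart, and the median was -1.57.

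The size of the heart and liver lists in the difference was read as a share of counts, as a share of the excess and as a covariate. As a share of all counts without mitochondrial ribosomal RNA, the cardiomyocyte list took 0.955% and 1.53% in the larynx, against 0.372% and 0.61% in the trachea and 0.0614% and 0.587% in the esophagus. In the 24 libraries of other ages whose labels have the same short form it took 0.0031% to 0.394%, so that 4 of the 6 libraries at E13.5, both of larynx among them, exceeded all of those. The hepatocyte list took 0.14% and 0.0197% in the larynx, against 0.271% and 0.00856% in the trachea and 0.346% and 0.0358% in the esophagus, and 0.0011% to 0.227% at other ages. To read the excess, the mean difference of the larynx was summed over the 2657 genes other than mitochondrial ribosomal RNA that stood apart as higher. The 33 of them on the cardiomyocyte, heart transcription factor and shared striated lists held 24.1% of that excess, and the 14 on the cardiomyocyte list alone held 11.9%. Members and total were both selected by the values they describe, so these shares are descriptions only. Over all genes with a higher mean in the larynx, the same lists held 13.4% and 6.02% of the summed excess. Among the 1917 genes that stood apart as lower, 0 belonged to the cardiomyocyte, heart transcription factor, shared striated, hepatocyte or erythroid lists. Over all genes with a lower mean in the larynx, the hepatocyte list held 1.29% and the erythroid list 1.88% of the summed deficit.

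The fit was then repeated with the log2 sum of the cardiomyocyte list, the hepatocyte list or both as covariates. With the heart covariate the 1417 genes that were higher at an unadjusted p under 0.05 had a median difference of 0.39, against 0.75 without it, and 219 of them kept such a p and direction. For the 825 lower genes the median was -0.48, against -0.59 without it, and 197 kept it. With the liver covariate the medians were 0.73 and -0.57, and 1325 and 734 genes kept it. The heart sum itself did not overlap between the larynx and the other libraries, so that in this fit heart RNA and tissue cannot be told apart for genes that follow both. In each of these 3 fits no list member of heart or liver passed in edgeR. Only 1 gene of any kind passed in them, with both covariates, so this says little.

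The heart covariate is the sum of the cardiomyocyte list, of which Myh6 is the largest member, so the values near 0 of its abundant members (-0.07 for Myh6, 0.00 for Tnni3 and a list median of -0.07) follow from the construction and are no finding. Nppa, also a member, came to -1.13. Outside the list, Tbx20 had a difference of -0.02 and Nkx2-5 of 0.02. Hcn4, a low member of the list, had 1.74, against 2.20 without it, Cacna1d at 1.03, against 1.26, and Eef1a2 at 1.48, against 2.12. Shox2 gave 1.27, against 2.07, Vsnl1 1.15, against 1.96, and Cacna2d2 1.19, against 2.34. Among the transcription factors Hand2 gave 0.90, against 1.14, Gata4 0.79, against 1.37, and Tbx5 0.61, against 1.15. No gene passed in edgeR with the heart covariate, where the lowest adjusted p was 0.996. With both covariates Hcn4 came to 1.36, Cacna1d to 0.75, Eef1a2 to 1.39, Shox2 to 1.19 and Cacna2d2 to 1.00. Vsnl1 came to 1.21, Hand2 to 1.13, Gata4 to 1.05 and Tbx5 to 0.70, above their values with the heart covariate alone. With the heart covariate alone, the median of shared striated genes came to 0.13 and that of heart transcription factors to 0.53. The sinoatrial list had 0.87, but it was drawn up around the called genes, so that its value is a description only. Alb moved to 1.36 with the heart covariate and to 0.14 with the liver covariate, and its standard error without either was 1.31. The 186 genes that DESeq2 called higher had a median difference of 1.03, and 0.58 with the heart covariate in edgeR, where 106 had an unadjusted p under 0.05. For the 37 called lower the median was -1.27, and -0.99 with the heart covariate, where 29 had such a p. Both sets were chosen by these same values. Of the 186 genes, 5 belonged to the cardiomyocyte, heart transcription factor and shared striated lists, namely Corin, Myl2, Gata4, Hand2 and Tbx5, and the sinoatrial list drawn up later held 4, Vsnl1, Cacna1d and Rgs6 among them.

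**Figure D3:**
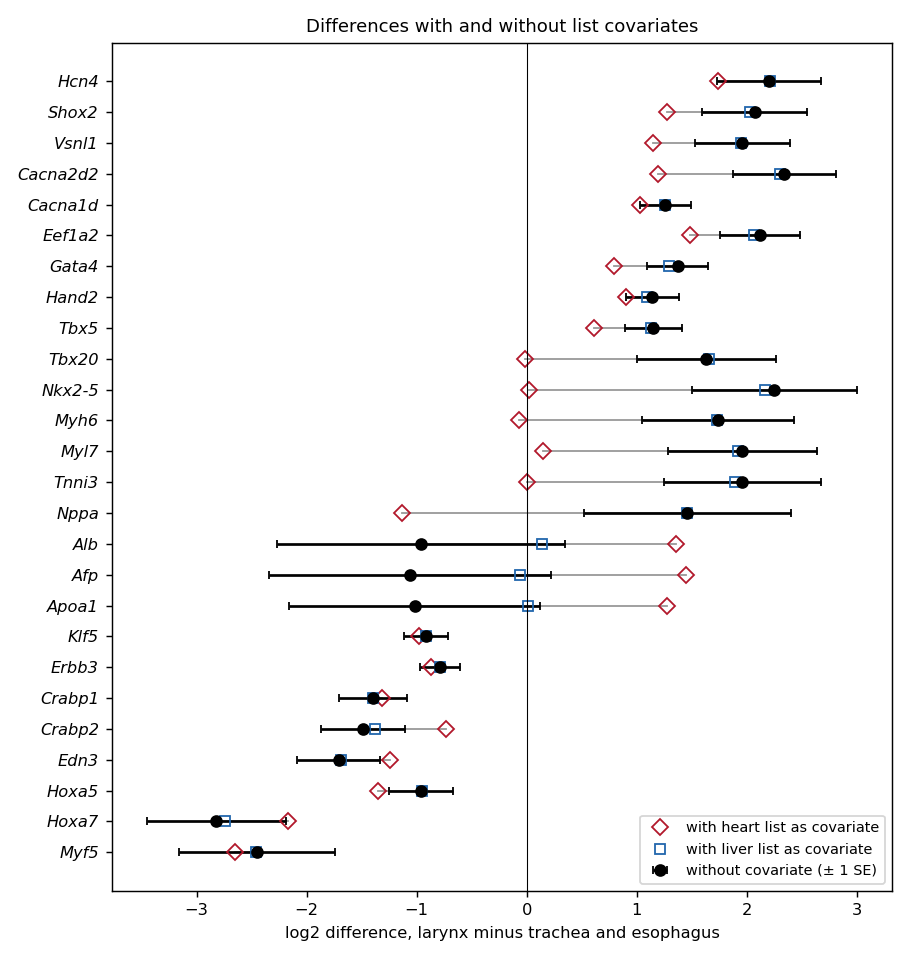
Log2 differences, larynx minus trachea and esophagus, of 26 genes without a covariate (circles, with bars of 1 SE), with the cardiomyocyte list (diamonds) and with the hepatocyte list (squares) as covariate. Myh6 and Tnni3, whose counts are part of the heart covariate, move to -0.07 and 0.00 with it, Hcn4 moves from 2.20 to 1.74, and Hoxa7 and Myf5 stay below -2.

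Genes lower in the larynx came from other groups. Hox genes, which mark position along the body axis, had a median difference of -1.78 over 35 tested genes, and 11 stood apart as lower and 0 as higher. DESeq2 called Hoxa7 and Hoxc5. Hoxa7 had 22.3 and 14.9 counts in the larynx, against 87.8 and 51.2 in the trachea and 205 and 185 in the esophagus. Hoxc5 had 45.5 and 49.2 counts in the larynx, against 97.5 and 57.4 in the trachea and 334 and 384 in the esophagus. In both, the larynx was lowest, the trachea intermediate and the esophagus highest. Hoxa5, which patterns the trachea and the laryngeal skeleton, had 193 and 142 counts in the larynx, against 289 and 383 in the trachea and 223 and 411 in the esophagus. The sums of the list were 1428 and 1013 in the larynx, against 1969 and 1970 in the trachea and 3144 and 2935 in the esophagus, and did not overlap. The differences were -2.82 ± 0.63 for Hoxa7 and -0.96 ± 0.29 for Hoxa5 (SE), and with the heart covariate -2.17 and -1.35. The median of the Hox list was nearer 0 with the heart covariate, at -0.83, and at -0.76 with both covariates.

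Crabp1, Crabp2, Cyp26a1 and Edn3 belong to no list and were chosen because they were lower, so they say nothing of a pathway as a whole. Crabp1, which binds retinoic acid in the cytoplasm, had 573 and 331 counts in the larynx, against 985 and 883 in the trachea and 1219 and 1697 in the esophagus. Its difference was -1.40 ± 0.31, with an adjusted p of 0.00326 in DESeq2 and 0.415 in edgeR. Crabp2, which carries retinoic acid to its receptor, had 338 and 215 counts in the larynx, against 732 and 420 in the trachea and 1204 and 750 in the esophagus. Cyp26a1, which degrades retinoic acid, had 23.2 and 4.58 counts in the larynx, against 37.9 and 26.4 in the trachea and 98.9 and 158 in the esophagus. Edn3, a ligand for neural crest cells, had 80.3 and 51.5 counts in the larynx, against 144 and 166 in the trachea and 304 and 252 in the esophagus. Erbb3, the neuregulin receptor of Schwann cell precursors, had 997 and 767 counts in the larynx, against 1366 and 1430 in the trachea and 1399 and 1909 in the esophagus. DESeq2 called Crabp2, Edn3 and Erbb3 too, and on the list of 10 Schwann and neural crest genes 3 stood apart as lower and 0 as higher.

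Of 17 genes of stratified epithelium, 4 stood apart as lower, Krt4, Pitx1 and Klf5 among them, and 0 as higher, with a median of -1.76, against -0.80 for the trachea alone and -2.23 for the esophagus alone. The sums of this list overlapped, at 3096 and 2950 in the larynx, against 4908 and 2603 in the trachea and 8093 and 9467 in the esophagus. On the respiratory epithelium list of 14 tested genes the median was -0.66, and 1 stood apart as lower and 1 as higher. Klf5, a factor of proliferating gut and airway epithelium, had 154.7 and 132 counts in the larynx, against 265 and 265 in the trachea and 254 and 302 in the esophagus. Krt4, a keratin of the layers above the basal cells, had 16.5 and 6.87 counts in the larynx, against 22.6 and 21.7 in the trachea and 82.7 and 136 in the esophagus. Krt5, the basal cell keratin, overlapped, with 312 and 222 counts in the larynx, against 834 and 83.8 in the trachea and 1656 and 1219 in the esophagus. Sox2, a foregut factor, had 127 and 64.1 counts in the larynx, against 131 and 158 in the trachea and 65.6 and 82.7 in the esophagus. Nkx2-1, the respiratory and thyroid factor, had 34.8 and 21.8 counts in the larynx, against 29 and 46.5 in the trachea and 13.49 and 0.939 in the esophagus. Tbx4, a factor of the mesenchyme around lung and trachea, had 391 and 113 counts in the larynx, against 347 and 700 in the trachea and 198 and 18.8 in the esophagus. For Nkx2-1 and Tbx4 each larynx library lay between the highest and the lowest of the others.

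The skeletal muscle list of 22 genes summed to 13288 and 21617 counts in the larynx, against 18629 and 10368 in the trachea and 20268 and 56676 in the esophagus. Esophagus replicate 2 was the highest library by far. The median difference was -1.46, 2 members (Casq1 and Ckm) stood apart as higher and 0 as lower. Casq1, a calcium store protein, had 2901 and 5259 counts in the larynx, against 1096 and 2006 in the trachea and 278 and 1572 in the esophagus. With the heart covariate its difference was 0.22, against 1.72 without it. Myf5, an early regulator of muscle fate, had 15.7 and 17.2 counts in the larynx, against 63.7 and 31 in the trachea and 80.9 and 184 in the esophagus, and DESeq2 called it at an adjusted p of 0.0257. Myod1, which acts next to Myf5, overlapped, with 35.6 and 74.4 counts in the larynx, against 108 and 26.4 in the trachea and 186 and 382 in the esophagus.

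Of 8 tendon genes, 4 stood apart as lower, namely Scx, Tnmd, Mkx and Kera. The tendon sums overlapped, at 4421 and 3232 in the larynx, against 3919 and 3421 in the trachea and 3565 and 6863 in the esophagus. Their median was -0.69, with -0.31 against the trachea alone and -1.02 against the esophagus alone. Scx, the factor of tendon progenitors, had 43 and 40.1 counts in the larynx, against 70.9 and 46.5 in the trachea and 111 and 124 in the esophagus. Of 19 cartilage genes 4 stood apart as lower and 0 as higher. The cartilage median was -0.95, with 0.15 against the trachea alone and -1.61 against the esophagus alone. Col2a1, the main cartilage collagen, had 843 and 822 counts in the larynx, against 640 and 565 in the trachea and 797 and 3950 in the esophagus. Sox9, the factor that starts cartilage, had 298 and 193 counts in the larynx, against 251 and 310 in the trachea and 451 and 275 in the esophagus. For Sox9 the groups overlapped. Acan, the proteoglycan of cartilage, had 73.6 and 40.1 counts in the larynx, against 45.1 and 26.4 in the trachea and 44.1 and 588 in the esophagus. Esophagus replicate 2 was far above every other library for Col2a1 and Acan.

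Of 18 proliferation genes, 8 stood apart as lower and 0 as higher, with a median of -0.29. Pcna, the clamp of DNA replication, had 2902 and 2810 counts in the larynx, against 3844 and 3602 in the trachea and 3762 and 3066 in the esophagus. The sums were 51876 and 42272 in the larynx, against 57537 and 59432 in the trachea and 57042 and 52695 in the esophagus, and the larynx was lower throughout, by a small margin for replicate 1. Vessel genes went the other way. Of 12 endothelial genes 6 stood apart as higher and 0 as lower, with a median of 0.26, and Tek, the angiopoietin receptor, had 3526 and 4570 counts in the larynx, against 2315 and 2845 in the trachea and 1087 and 2072 in the esophagus. With the heart covariate the endothelial median was -0.05.

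Of 21 Bmp ligands and antagonists 5 stood apart as higher (Bmp2, Bmp4, Bmp6, Bmp7 and Bmp8a) and 2 as lower (Chrdl1 and Gdf11), with 0 called in edgeR and 0 higher and 1 lower called in DESeq2. Bmp4, a growth factor of foregut mesenchyme and of the sinus venosus, had 626 and 625 counts in the larynx, against 438 and 417 in the trachea and 475 and 445 in the esophagus. Bmp2 had 251 and 200 counts in the larynx, against 122 and 132 in the trachea and 161 and 96.8 in the esophagus. Chrdl1, an antagonist of Bmp signals, had 175 and 93.9 counts in the larynx, against 181 and 358 in the trachea and 373 and 499 in the esophagus, and DESeq2 called it lower at an adjusted p of 0.041. With the heart covariate Bmp4 stood at 0.58, against 0.49 without it, and Bmp2 at 1.17, against 0.82. Smooth muscle genes split as well. Of 13, 5 stood apart as higher and 1 as lower, and Myocd, the co-activator that heart and smooth muscle share, had 1054 and 1161 counts in the larynx, against 641 and 839 in the trachea and 520 and 598 in the esophagus, with an adjusted p of 0.0362 in DESeq2. Myh11, the smooth muscle myosin, overlapped, with 2354 and 634 counts in the larynx, against 1979 and 2603 in the trachea and 2276 and 3544 in the esophagus.

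**Figure D4:**
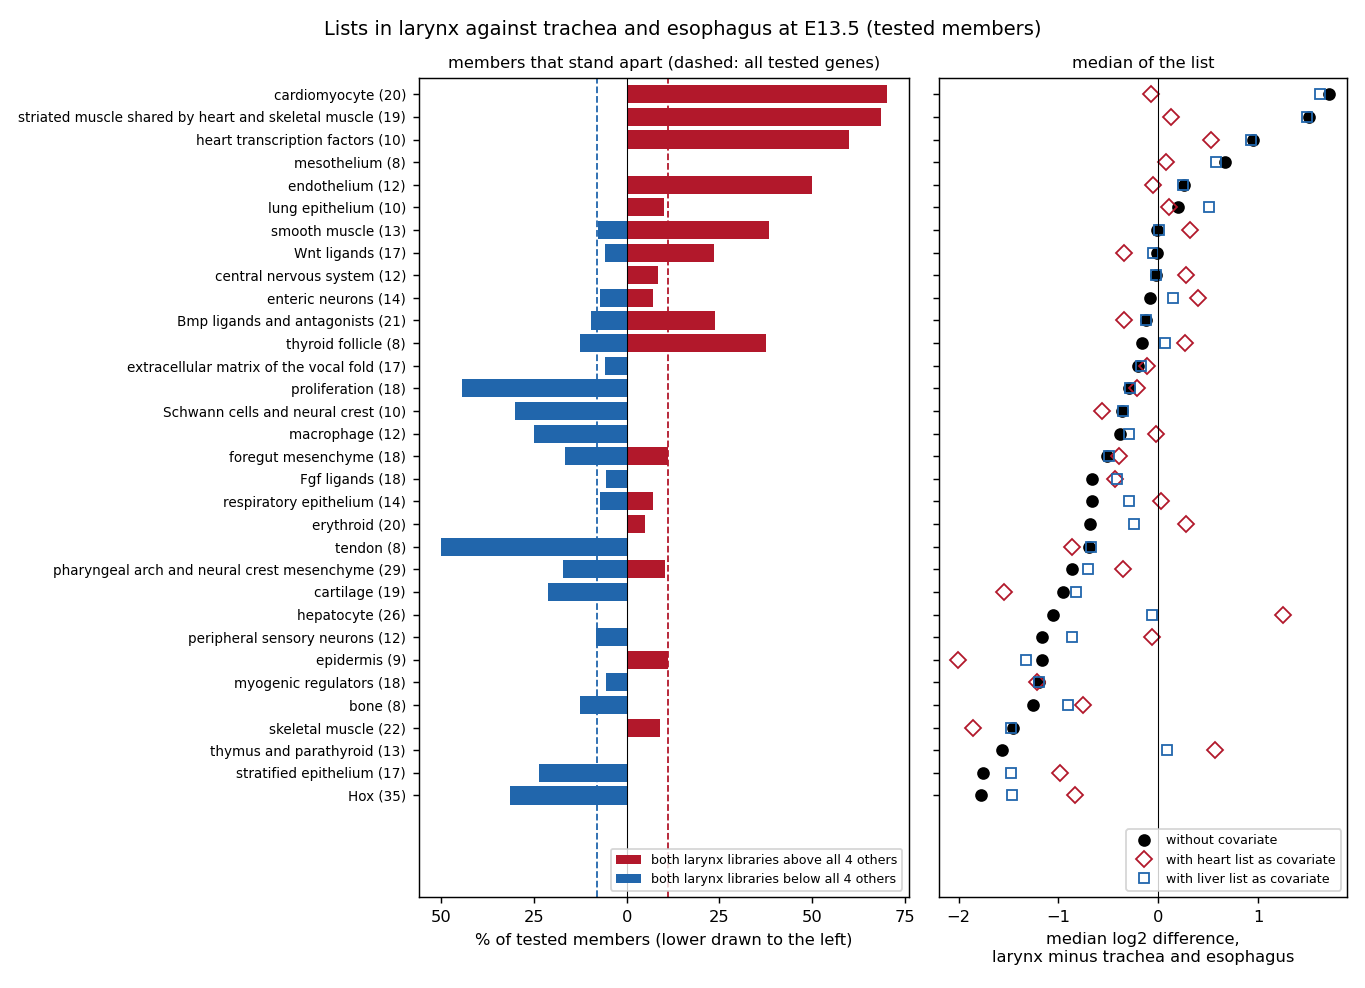
Lists with at least 8 tested members. Left, percentage of tested members (number in brackets) whose larynx libraries both lie above (red, to the right) or below (blue, to the left) all 4 other libraries, with dashed lines at the 11.2% and 8.08% of all tested genes. Right, median log2 difference of each list, larynx minus trachea and esophagus, without a covariate, with the heart list and with the liver list, where the cardiomyocyte median is 1.71, and -0.07 with the heart list, which is its own sum.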

How the data were processed

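Poly-A RNA of 6 E13.5 libraries was compared, 2 libraries each of larynx, trachea and esophagus. Reads were aligned by the authors with Bowtie2 2.4.2, and the deposited values are expected counts per gene from RSEM 1.3.3, not normalized. RSEM divides reads between genes that share sequence, and no source used here says if strand was used. Gene symbols and coordinates come from GENCODE vM39 (GRCm39), which matched 52610 of 53647 identifiers. Depth was 12883607 to 24163158 expected counts per library.

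Expected counts were rounded, scaled by median-ratio factors and kept where 2 or more libraries reached a normalized count of 1. The main test was the quasi-likelihood test of edgeR 4.0.16 (R 4.3.3) with Benjamini-Hochberg adjustment and a threshold of 0.05, with larynx against the 4 other libraries (4 residual degrees of freedom), and with a mean per tissue for each organ alone. Larynx against the 4 others was also tested on simulated data, where 39 of 50 genes with a true difference of 2 were called, and 5 of 50 with a true difference of 1. The simulation gave trachea and esophagus equal means, so it does not speak of genes that differ between them. It also gave every gene the same dispersion and changed only genes with a mean of at least 50, so its shares are not the power in the real data. All 6 libraries are of the same age and kind, so no spread was taken from other ages. DESeq2 1.42.0, TMM factors, other filters, wider sets of libraries, a replicate block, list covariates and leaving out each library were alternatives. The 33 lists and the comparison were chosen with earlier results of these data known, and 3 heart lists were added after the values were seen. Named genes are, of each list, up to 4 members past the threshold and up to 4 with the highest counts, the 15 largest differences in each direction past the threshold with a mean of at least 50 (there were none), a set of heart, liver, blood and regional genes, and every gene of a count of 5 or fewer. Cacna1d, Cacna2d2, Rgs6, Tbx18, Gata4, Hand2, Nkx2-5, Hoxa7, Hoxc5, Myf5, Krt4, Klf5, Crabp1, Crabp2, Cyp26a1, Edn3, Erbb3, Scx, Pth, Bmp2 and others outside the rule were chosen after their values were seen. No value column was left without a sample. A member of the stratified epithelium list is not reported here.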

Additional observations from a re-analysis of the deposited data

Results flagged for a closer look

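Among the 4 trachea and esophagus libraries, 5 of 88 checked values lay far from the nearest other library relative to their range, and chance flags about 1 in 20 groups. All 5 were values of esophagus replicate 2. They were the tendon list with a summed count of 6863, the epidermis list with 743, Erbb3 with 1909, Tnmd, a tendon membrane protein, with 243, and Matn3, a cartilage matrix protein, with 231. In the larynx the tendon list summed to 4421 and 3232, the epidermis list to 133 and 160, Erbb3 to 997 and 767, Tnmd to 23.2 and 8.01 and Matn3 to 9.1 and 10.3.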

How the results depend on the processing

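Counts of genes past the threshold depended on the fit. For larynx against trachea and esophagus together the count was 0, and 0 with TMM factors, a filter of 10, either covariate alone, all 40 libraries and each library left out. It was 4 with a mean per tissue (Shox2, Hcn4, Vsnl1 and Eef1a2), 3 without a filter (Eef1a2, Atp8a2 and Gm20431), 1 with both covariates (Gm5537), 1 in the 30 short-code libraries, those whose labels have the same short form (Hcn4), and 223 in DESeq2. Against the trachea alone it was 0, with 566 without a filter, 10 in DESeq2 and 0 to 2 with a library left out (2 without esophagus replicate 1, 1 without larynx replicate 1). Against the esophagus alone it was 5, with 1495 without a filter, 2 with a filter of 10, 26 in the 30 short-code libraries, 0 in all 40 libraries, 522 in DESeq2 and 2 to 431 with a library left out (101 without esophagus replicate 1, 431 without esophagus replicate 2, 2 without larynx replicate 2 or trachea replicate 1). The replicate block gave 2 genes (Ndrg4 higher, Pth lower), 244 against the trachea and 1228 against the esophagus. The labels do not say that a number marks a shared day or litter, and only 2 numbers exist. Deviations of same-numbered libraries correlated at 0.139 to 0.213 across genes, and the hepatocyte, thymus and parathyroid sums went with the number. The block therefore stays an alternative, and a pairing was not tested. Against trachea and esophagus together, no cardiomyocyte or hepatocyte member was called lower under any alternative. Few genes of any kind were called lower there, 37 in DESeq2, 1 with the replicate block, 1 with both covariates and 0 otherwise, so this says little. The causes were not tested.

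At an unadjusted p under 0.05 edgeR held 2242 genes, 812 with the heart covariate, 2443 with the liver covariate, 627 with both, 370 without larynx replicate 2 and 2818 without trachea replicate 2. In an alternative chosen after seeing the data, the 3 replicate 2 libraries alone, which hold little liver RNA, the cardiomyocyte median was 1.55. That fit has 1 residual degree of freedom, so its count of 0 calls says nothing.

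Signs of uncalled genes reversed in 40 of 1000 refits of named genes. With the heart covariate these were Myh6 (-0.07), Nppa (-1.13), Alb (1.36), Afp (1.45), Apoa1 (1.27), Hba-a1 (0.46), Alas2 (0.17), Nkx2-1 (-0.03) and Sox9 (0.12), and with the liver covariate Alb (0.14), Apoa1 (0.01) and Hba-a1 (0.23). With both they were Myh6 (-0.18), Nppa (-1.09), Afp (0.02), Apoa1 (0.19), Hba-a1 (0.04), Sox9 (0.29) and Tbx3 (0.31). In the replicate 2 libraries alone they were Alb (0.16), Apoa1 (0.45), Hba-a1 (0.89), Hbb-y (0.54), Alas2 (0.17) and Nkx2-1 (-0.10). Hba-a1 was 0.11 with the replicate block, and Tbx4 was 0.09 with a mean per tissue, 0.10 in the 30 short-code libraries and 0.09 in all 40. With a library left out, differences ran for Hba-a1 from -0.37 to 0.17, Hbb-y from -0.83 to 0.37, Tbx4 from -1.47 to 0.43, Nkx2-1 from -0.04 to 0.96, Sox2 from -0.76 to 0.22, Tbx3 from -0.43 to 0.02.

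With 2 libraries per tissue each value rests on few pools, and counts of low genes such as Irx4 and Pth are limited by depth.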

Other observations

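Several groups of neighbouring organs were present at low or overlapping levels. Tg, the thyroid hormone precursor, had 101 and 145 counts in the larynx, against 73.3 and 41.9 in the trachea and 37.8 and 58.2 in the esophagus, whereas the thyroid list as a whole summed to 1002 and 474 in the larynx, against 1021 and 557 in the trachea and 636 and 871 in the esophagus. Upk3b, a mesothelial membrane protein of the pericardial and pleural lining, had 2637 and 6021 counts in the larynx, against 1973 and 2558 in the trachea and 1526 and 3423 in the esophagus. With the heart covariate its difference was 0.15, against 0.87 without it. Macrophage genes had a median difference of -0.38, and 3 of 12 stood apart as lower.

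Eln, the elastic fiber protein, followed the replicate number in all tissues, with 15097 and 6345 counts in the larynx, against 15577 and 5928 in the trachea and 6852 and 2040 in the esophagus. Has2, which makes hyaluronan, had 423 and 180 counts in the larynx, against 429 and 545 in the trachea and 549 and 700 in the esophagus. Gm20431, a predicted gene, had 39.7 and 95 counts in the larynx and is listed at 0 in the other 4 libraries.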
